A study of Danio rerio with 4 samples.

Results

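The citric acid cycle enzymes described here are 9 genes, cs, idh3a, idh2, ogdha, dlst, suclg1, fh, mdh2 and mdh1aa, out of 8793 genes named on the array. A probe set was taken as a member if the platform annotation gives it a single gene symbol and that symbol is one of the 9, which gave 11 of 15617 probe sets. Expression was measured on Affymetrix zebrafish arrays in total RNA of zebrafish embryos taken whole at 36 hours post fertilisation (hpf). The glucose group was raised in E3, the standard embryo medium, with 1% glucose from 12 to 36 hpf, and the control group consisted of embryos labelled only as control. Each group had 2 biological replicates with 1 array each, and the labels give no strain, transgene or mutation for either group. The study asked how altered glucose metabolism bears on the induction of blood stem cells, and the comparison asks whether transcripts differed between glucose and control embryos.

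The citric acid cycle is the ring of mitochondrial reactions that oxidises the acetyl group of acetyl-CoA to carbon dioxide and passes the electrons, as NADH and reduced flavin, to the respiratory chain. Acetyl-CoA comes from pyruvate, the end product of glycolysis, and from fatty acids and amino acids. Intermediates of the cycle also leave it as building blocks for glucose, lipids, amino acids and haem. The roles given below are those of the vertebrate enzymes, largely worked out in mammals.

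No citric acid cycle enzyme passed the test for a difference between glucose and control embryos. All 9 genes and all 11 probe sets were bright enough to be tested, and every one exceeded 117.7 on all 4 arrays, the top reading among 17 tag probe sets that match no fish transcript. By limma with an intensity trend, 0 of the 11 had a Benjamini-Hochberg adjusted p under 0.10, against 2% of the 13628 probe sets tested, of which 273 passed (1.29% higher and 0.712% lower in glucose). The smallest adjusted p among the members was 0.483. At an unadjusted p under 0.05 there were also 0 members, against 11.5% of all tested probe sets. Without the trend, limma called 0 members and 0 of all probe sets.

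Taking the brightest probe set of each gene, 4 enzymes were higher and 5 lower in glucose, and the differences ran from -0.19 for fh to 0.23 for ogdha on the log2 scale. Their median difference was -0.0462, against 0.00148 over all tested probe sets. The median size of the difference, whatever its sign, was 0.133 for the enzymes and 0.196 over all tested probe sets, which include many dimmer and noisier ones. In 9 of the 11 probe sets the difference between the groups was no larger than the gap between replicates in the more variable group, as in 71.5% of all tested probe sets. The groups did not overlap in 3 of the 11 probe sets, 1 higher and 2 lower in glucose, against 41% of all tested probe sets.

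The 95% intervals of limma with trend, each for 1 probe set, show what the arrays could have missed under that model. Among the 9 probe sets with a mean control intensity above 1000, the highest upper limit was 1.35-fold (suclg1). The lowest lower limit was 70.9% of control (fh). The other probe sets, those of ogdha and the dimmer one of idh3a, allow a rise of up to 1.63-fold for ogdha and a fall to 64.8% of control for idh3a. Without the trend the standard errors were larger, 0.152 against 0.108 for suclg1 and 0.213 against 0.144 for fh. The limits thus depend on the trend. The labels do not say whether the replicates came from separate clutches, so the p-values may not cover the spread between clutches. They also rest largely on the spread of other probe sets of like brightness. The fit had 17.6 total degrees of freedom, of which 2 came from the probe set's own arrays. In whole embryos, fewer cells of a type and less RNA per cell cannot be told apart.

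**Figure D1:**
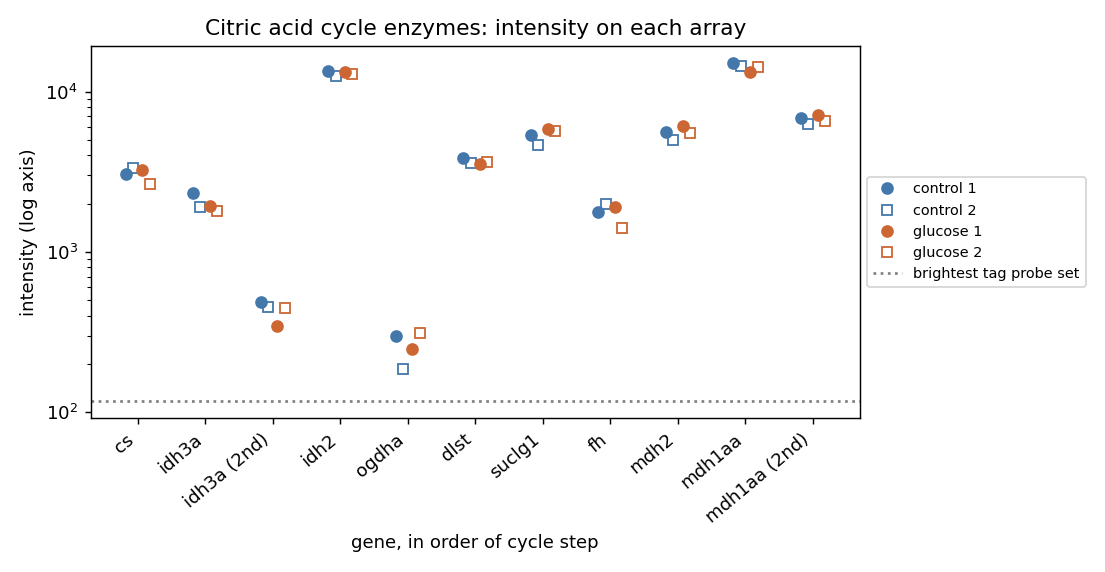
Intensity (vertical axis, log scale, arbitrary units) of each probe set of the 9 enzymes on the 4 arrays, ordered along the cycle, with "2nd" for the dimmer probe set of a gene; filled and open symbols are replicates 1 and 2, and the dotted line is the brightest tag probe set at 117.7. On the log axis the blue control and orange glucose points lie close together for most probe sets and are most spread for ogdha. The suclg1 points are higher in glucose, while those of the brighter mdh1aa and the dimmer idh3a probe set are lower.

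The entry step was measured by cs, citrate synthase, which joins acetyl-CoA to oxaloacetate. The cs probe set read 3055 and 3351 in control embryos and 3233 and 2662 in glucose embryos. Glucose replicate 2 was the lowest of the 4 and glucose replicate 1 lay between the controls, so the groups overlapped. The means were 3203 ± 209 (SD, n = 2) in control and 2948 ± 403 in glucose. The log2 difference was -0.13, its standard error was 0.12, and it did not pass (limma with trend, adjusted p = 0.762). Without glucose replicate 2 the log2 difference was 0.0151, and its sign thus rests on that array.

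Isocitrate is oxidised to alpha-ketoglutarate by an NAD-dependent enzyme, of which idh3a encodes the catalytic subunit, and by an NADP-dependent mitochondrial enzyme encoded by idh2. The brighter idh3a probe set had intensities of 2325 and 1909 in control and 1933 and 1788 in glucose. Control replicate 1 stood above the other arrays, and glucose replicate 1 was just above control replicate 2. The log2 difference was -0.18 with a 95% interval from -0.45 to 0.09 (limma with trend, adjusted p = 0.65). Without control replicate 1 it was -0.0382.

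The dimmer idh3a probe set read 488 and 454 in control and 347 and 444 in glucose. Here both glucose arrays were below both controls, glucose replicate 2 by a small margin. The log2 difference of -0.26 had a standard error of 0.17 and did not pass either (adjusted p = 0.613). Both idh3a probe sets thus gave a lower mean in glucose, and neither difference was larger than the gap within its more variable group.

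For idh2 the intensities were 13479 and 12497 in control and 13242 and 12885 in glucose, with both glucose values between the controls. This was the smallest difference among the 9 genes, 0.00923 on the log2 scale, with a 95% interval from 0.877-fold to 1.15-fold (limma with trend, adjusted p = 0.985). After quantile normalization the difference was -0.0584, so the idh2 value has no settled sign.

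Alpha-ketoglutarate dehydrogenase is a large complex in which ogdha encodes the decarboxylating first component and dlst the succinyltransferase core. The ogdha probe set was the least bright of the 11 and the most variable, with 300 and 187 in control and 246 and 313 in glucose. The glucose arrays held the highest value and the third highest, and the lowest value was control replicate 2. The log2 difference of 0.23 had a 95% interval from -0.24 to 0.70 (limma with trend, adjusted p = 0.764). Leaving out control replicate 2 turned it to -0.11, and leaving out control replicate 1 gave 0.57.

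The dlst probe set was among the steadiest, with intensities of 3824 and 3599 in control and 3553 and 3633 in glucose. One glucose array lay below both controls and the other between them. The means of 3711 ± 159 (SD, n = 2) and 3593 ± 57.1 differed by -0.0462 on the log2 scale (standard error 0.11; limma with trend, adjusted p = 0.921).

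Succinyl-CoA ligase makes ATP or GTP directly in the cycle, and suclg1 encodes the alpha subunit that both forms of the enzyme share. Its intensities were 5321 and 4647 in control and 5877 and 5641 in glucose. Both glucose arrays were above both controls, and suclg1 was the only member of the 9 with its groups apart in that direction, which held for 20.7% of all tested probe sets. The means were 4984 ± 477 (SD, n = 2) and 5759 ± 167, a 1.16-fold difference with a 95% interval from 0.99-fold to 1.35-fold. This was the smallest p among the members (limma with trend, unadjusted p = 0.0656, adjusted p = 0.483). Without control replicate 1 the log2 difference went from 0.21 to 0.31 and passed the threshold (adjusted p = 0.0934), while the other fits that leave out 1 array gave 0.11 to 0.24 and adjusted p between 0.672 and 0.891.

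Fumarase, encoded by fh, hydrates fumarate to malate. The fh probe set read 1773 and 1975 in control and 1907 and 1404 in glucose. Glucose replicate 1 fell between the controls, and glucose replicate 2 was the lowest of the 4 by a wide gap. The log2 difference was -0.19, the standard error 0.14 and the adjusted p 0.667 by limma with trend. Without glucose replicate 2 it was 0.0275, the same dependence on that array as for cs.

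Malate is oxidised back to oxaloacetate by mdh2 in mitochondria, while mdh1aa encodes a cytosolic malate dehydrogenase, which works in the shuttle that carries reducing equivalents into mitochondria. For mdh2 the intensities were 5606 and 5008 in control and 6133 and 5508 in glucose. The highest value was a glucose array and the lowest a control array, and the groups overlapped. The log2 difference was 0.13 with a 95% interval from -0.09 to 0.36 (limma with trend, adjusted p = 0.701).

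The pair of mdh1aa probe sets differed in sign. The brighter read 15093 and 14467 in control and 13253 and 14241 in glucose, with both glucose arrays below both controls, and its log2 difference was -0.11 (limma with trend, adjusted p = 0.737). Groups apart in that direction were found in 20.3% of all tested probe sets. The dimmer read 6794 and 6281 in control and 7097 and 6591 in glucose, with overlapping groups and a log2 difference of 0.0663 (adjusted p = 0.868). The ratio of the brighter to the dimmer was 2.22 and 2.30 in control and 1.87 and 2.16 in glucose. Which mdh1aa transcripts each probe set detects is not stated in the sources used here, and whether either also binds the duplicate gene mdh1ab was not tested.

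**Figure D2:**
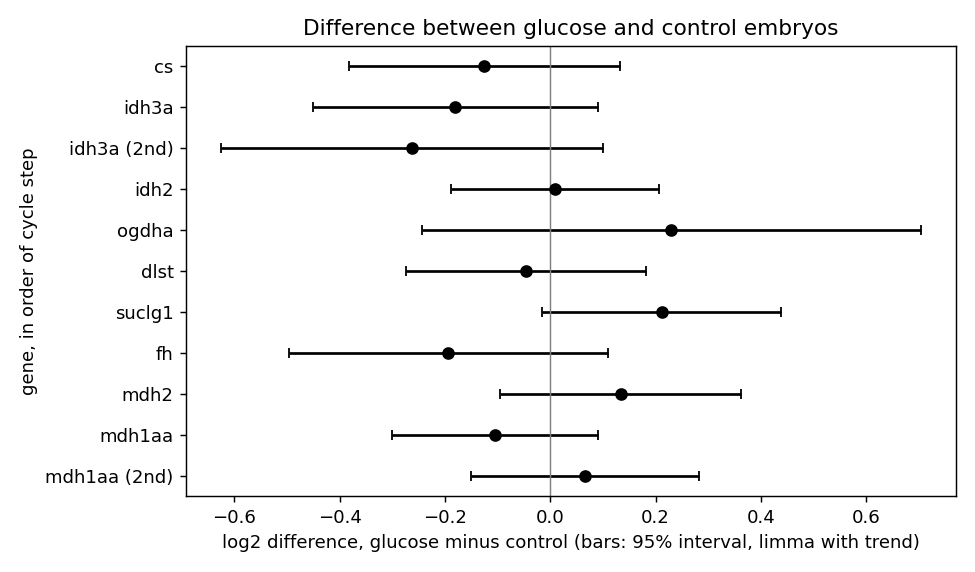
Log2 difference between glucose and control (horizontal axis, glucose minus control) for the 11 probe sets of the 9 enzymes, ordered along the cycle; points are estimates and bars are 95% intervals from limma with an intensity trend, n = 2 arrays per group. All 11 intervals include 0, the interval of suclg1 comes closest to leaving it out on the higher side, and ogdha has the widest.

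The order of the arrays differed from enzyme to enzyme. On the log2 scale, with each gene centred on its own mean, control replicate 1 was above the mean for 7 of the 9 genes and control replicate 2 for 3, while glucose replicates 1 and 2 were above for 5 and 2. Control replicate 1 was the highest array for 4 genes and the lowest for none. Control replicate 2 was the lowest array for 4, glucose replicate 2 for 3 and glucose replicate 1 for 2. The median centred value per array was 0.05 and -0.052 in control and 0.0244 and -0.0108 in glucose, so the gap between the control arrays was larger than that between the groups.

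Some enzymes shared a shape. For cs and fh, glucose replicate 2 was the lowest array and control replicate 2 the highest. For suclg1 and mdh2, control replicate 2 was the lowest and glucose replicate 1 the highest. The range over the 4 arrays was widest for ogdha, from -0.46 to 0.29 around its mean, and narrow for idh2, from -0.0592 to 0.05. With 4 arrays these shapes carry no test.

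**Figure D3:**
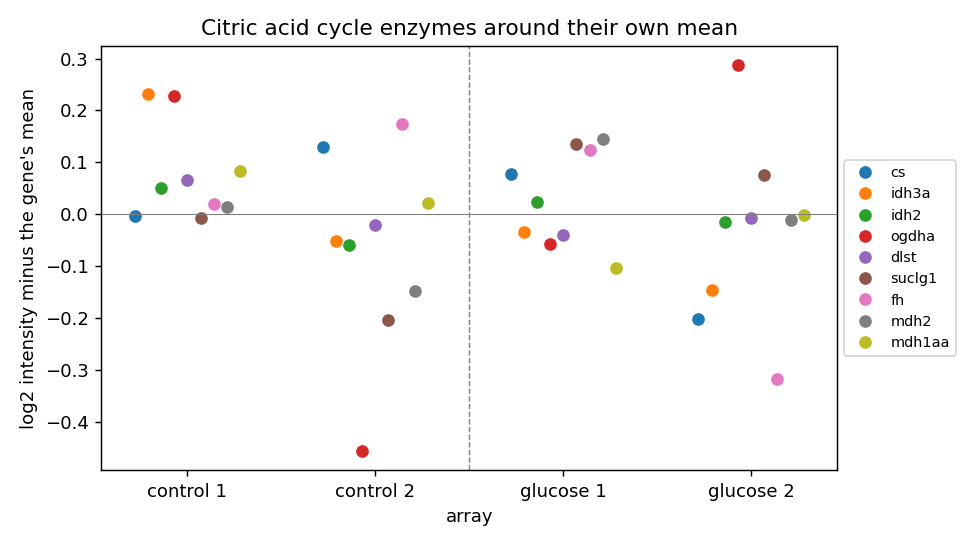
Log2 intensity of the 9 enzymes (brightest probe set of each gene) minus the gene's mean over the 4 arrays (vertical axis), for each array (horizontal axis), with 1 colour per gene and the dashed line between control and glucose. The points of each array lie on both sides of 0, and the widest departures are ogdha at -0.46 in control replicate 2 and fh at -0.32 in glucose replicate 2.

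Profiles near the enzyme mean were sought among tested single-symbol genes with a mean log2 intensity of at least 7. Genes of the cycle, carbon entry and exit, and mitochondrial lists below and clone-type names were passed over, while cell type markers were kept. In this pool rpl23a, ubb and rpl8 had centred values nearest to the mean of the 9 enzymes over the 4 arrays. Their Euclidean distances were 0.0142, 0.0165 and 0.0174 on the log2 scale. The first and last encode ribosomal proteins and ubb encodes ubiquitin. Their log2 differences were 0.00634, -0.0119 and -0.0162. All are small, and their signs turned in some of the alternative settings. The genes were picked for nearness to the enzyme mean, so differences like that of the mean follow from the choice.

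The partner subunits of the members were read from a list of 24 cycle genes, of which 23 had a probe set and 22 were tested. In the whole list 9 were higher and 13 lower in glucose, and the median was -0.0418. By limma with trend 0 passed at an adjusted p under 0.10. At an unadjusted p under 0.05 there were 2, against 11.5% of all tested probe sets. The groups did not overlap for 3 genes higher and 5 lower in glucose, against 20.7% and 20.3% of all tested probe sets. Partners are named here for the complex they share with a member, with their values already known. The GTP-specific partner of suclg1, suclg2, read 1736 and 1571 in control and 1757 and 2182 in glucose, a log2 difference of 0.25 (adjusted p = 0.511). The ATP-specific partner sucla2 differed by -0.0375 (adjusted p = 0.948). Both suclg1 and suclg2 had all glucose values above all control values, and sucla2 did not. The difference between these partners was not tested.

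For the partners of idh3a, the regulatory subunit gene idh3b differed by 0.0269 on its brighter probe set and by -0.55 on a dimmer one near the tag level (adjusted p = 0.97 and 0.466). The other, idh3g, read between 53.8 and 71.0, below the brightest tag probe set, so no difference in it was readable. For ogdha, the second gene ogdhb differed by 0.11 (adjusted p = 0.878), and ogdhl was too dim to be tested. The symbol dld, counted here as the dihydrolipoamide dehydrogenase of the complex, differed by 0.0941 (adjusted p = 0.812); in zebrafish this symbol has also been used for a Notch ligand, so its identity is uncertain.

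Succinate dehydrogenase, which joins the cycle to the respiratory chain, was represented by 4 subunit genes. Its membrane anchor sdhc read 5278 and 4920 in control and 4465 and 4404 in glucose, with both glucose arrays lower. The log2 difference was -0.20 (limma with trend, adjusted p = 0.497). The catalytic subunits sdha and sdhb differed by -0.13 and -0.0336, and the anchor gene sdhd, annotated as sdhdb, by 0.0126 (adjusted p = 0.748, 0.949 and 0.984). Both glucose arrays were below both controls for sdha as well as sdhc, as in 20.3% of all tested probe sets. For sdhb and sdhd the groups overlapped.

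The 2 cycle-list genes with the smallest p encode cytosolic isozymes of members. The cytosolic NADP-dependent isocitrate dehydrogenase idh1 had intensities of 1330 and 1455 in control and 1098 and 930 in glucose. Both glucose arrays were below both controls, and the log2 difference was -0.46 with a standard error of 0.14. It did not pass over all probe sets (limma with trend, unadjusted p = 0.00353, adjusted p = 0.141). Without control replicate 1 it passed, at -0.53 with an adjusted p of 0.0237, and over the other alternatives its adjusted p reached 0.709. Its mitochondrial counterpart idh2 differed by 0.00923, and the difference between the isozymes was not tested.

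The duplicate of mdh1aa, mdh1ab, read 3527 and 2962 in control and 2702 and 2573 in glucose, with both glucose arrays below both controls. Its log2 difference of -0.29 did not pass (limma with trend, unadjusted p = 0.0246, adjusted p = 0.339). It was -0.42 without control replicate 2, where it passed (adjusted p = 0.0188), and -0.17 without control replicate 1 (adjusted p = 0.659).

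A list of 41 genes covered carbon entry into the cycle and exit from it, including kinases and phosphatases that regulate pyruvate dehydrogenase. Of the 41 genes, 25 had a probe set and 23 were tested. Of these, 10 were higher and 13 lower in glucose with a median of -0.0266, and 0 passed limma with trend. At an unadjusted p under 0.05 there were 2, against 11.5% of all tested probe sets. The groups did not overlap for 3 genes higher and 5 lower in glucose, against 20.7% and 20.3% of all tested probe sets. The largest differences in either direction, 0.81 for pcxb and -0.71 for pdp2, came from probe sets below the tag level of 117.7 on all 4 arrays. The pdk2b probe set was also below it on all 4, so no difference in these genes was readable. The smallest p was that of pck2, the mitochondrial enzyme that turns oxaloacetate into phosphoenolpyruvate. It read 841 and 1021 in control and 1193 and 1493 in glucose, so that both glucose arrays were higher. The log2 difference of 0.53 had a standard error of 0.15 and missed the threshold (adjusted p = 0.115). It passed without control replicate 2 and without glucose replicate 1 (adjusted p = 9.62e-04 and 0.0616). With all 4 arrays it also passed with the replicate block, the filter at a mean log2 of at least 6, robust eBayes and median centring (adjusted p = 0.0601, 0.0782, 0.0911 and 0.0971). It did not pass in limma without the trend, without a filter or with quantile normalization (adjusted p = 0.597, 0.18 and 0.167). Nor did it pass with the mean of a gene's probe sets (adjusted p = 0.115). Its adjusted p was 0.165 without control replicate 1 and 0.698 without glucose replicate 2.

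In the other direction lay aclya, an ATP citrate lyase gene whose product splits exported citrate into acetyl-CoA for lipid synthesis. It read 283 and 271 in control and 177 and 204 in glucose, a log2 difference of -0.54 that did not pass (limma with trend, unadjusted p = 0.0127, adjusted p = 0.264). The pyruvate dehydrogenase subunit gene pdha1a differed by -0.37 on its brighter probe set and by 0.10 on its dimmer one (adjusted p = 0.497 and 0.902). Leaving out control replicate 2 took the brighter to -0.0346, and leaving out control replicate 1 took it to -0.70, past the threshold (adjusted p = 0.965 and 0.0128). The cytosolic aspartate aminotransferase got1, a shuttle partner of mdh1aa, differed by -0.25 (adjusted p = 0.542).

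As a view of mitochondrial transcripts in general, a list of 34 respiratory chain and other mitochondrial genes had 29 tested members. Of these, 21 were lower and 8 higher, with a median of -0.06. Groups were apart for 3 genes higher and 11 lower in glucose, against 20.7% and 20.3% of all tested probe sets. By limma with trend 4 had an unadjusted p under 0.05, against 11.5% of all tested probe sets. Only 1 passed at an adjusted p under 0.10, against 2% of all tested probe sets. This was the cytochrome oxidase subunit gene cox6b1, which was higher in glucose. It read 2237 and 1729 in control and 2892 and 2913 in glucose (limma with trend, log2 difference 0.56, adjusted p = 0.0405). Its call was lost without either glucose array (adjusted p = 0.113 and 0.16) and without the trend (adjusted p = 0.575). The complex I subunit genes ndufb5 and ndufb8 differed by -0.33 and -0.25 (adjusted p = 0.244 and 0.354). Without control replicate 2 ndufb5 was at -0.48 and passed (adjusted p = 0.00132), and without control replicate 1 it was at -0.18. The share of lower genes was 5 of 9 among the cycle enzymes and 49.8% over all tested probe sets.

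**Figure D4:**
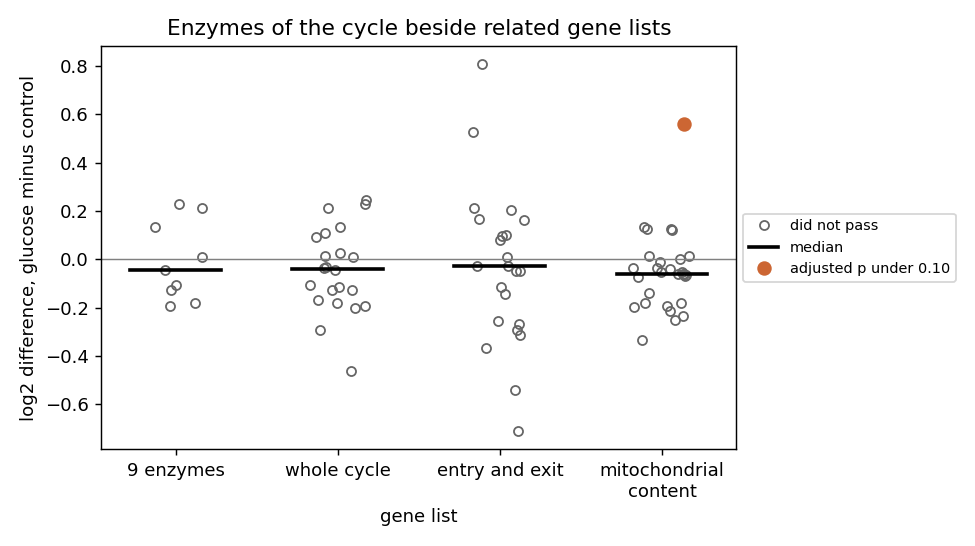
Log2 difference between glucose and control (vertical axis) for each tested gene, by its brightest probe set, in 4 lists (horizontal axis): the 9 enzymes, 22 genes of the whole cycle, which include the 9, 23 genes of carbon entry and exit, and 29 mitochondrial genes; bars are medians and the filled point passed at an adjusted p under 0.10. The medians lie between -0.06 and -0.0266, and the filled point is cox6b1 at 0.56. The highest and lowest points of the entry and exit list, pcxb and pdp2, are from probe sets below the brightest tag probe set on all 4 arrays.

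Over the whole arrays, median intensities lay between 170.9 and 175.2, and between 58.2% and 59.2% of probe sets were above the tag level on each. The 3′ over 5′ intensity ratio, which grows as RNA degrades, was 2.14 to 2.49 for actin and 1.45 to 1.78 for Gapdh, with overlapping groups. Markers of muscle, heart, red cells, neurons, skin, and liver, gut and yolk were all present, as in a whole embryo. At an adjusted p under 0.10 by limma with trend, 1.29% of all tested probe sets passed as higher and 0.712% as lower in glucose. All 5 tested markers of primitive red cells were higher in glucose, and 3 passed at that threshold. Their summed intensity was 42411 to 45841 in control and 53718 to 56975 in glucose. Of 5 liver, gut and yolk markers 4 were higher and passed and 1 was lower, with sums of 24159 to 24579 and 33326 to 35424. All 6 epidermis and ionocyte markers were lower and 2 passed, with sums of 58368 to 62642 and 55863 to 56277. None of 5 muscle, 4 heart and 6 neuron markers passed on the brightest probe set. All 4 heart markers were higher in glucose, with the groups apart for all 4. All 6 neuron markers were lower, with the groups apart for 5. Of the muscle markers 1 was higher and 4 lower, with the groups apart for 0. Groups were apart in 20.7% (higher) and 20.3% (lower) of all tested probe sets. The sums were 151237 to 169933 in control and 155506 to 158869 in glucose for muscle. For heart they were 2318 to 2404 and 3066 to 3094, and for neurons 15894 to 15895 and 13889 to 14254. The part of these cell types in the enzyme values was not tested.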

How the data were processed

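Per the labels, Trizol was used to extract total RNA, which was biotin-labelled for hybridisation. The deposited table holds linear intensity values, 1 for each probe set on each array. GCRMA is the tool in the submitters' processing notes, without a version; the deposited intensity values share a mean of 500.2 after trimming 2% at each end, a feature of another method, so the method and any background correction stay unknown.

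Without further scaling, log2 values were tested by limma 3.58.1 in R 4.3.3 with an intensity trend, since the spread falls with brightness. Control probe sets (115) were left out, and 13628 of the other 15502 had a log2 value of at least 5 on at least 2 arrays. Benjamini-Hochberg adjustment ran over all of them, at a threshold of 0.10. The small number of arrays, with 2 residual degrees of freedom, limits the precision. The code was tested on simulated data with changes far larger than any member difference. That test does not show how well differences of the members' size are found. The brightest probe set of a gene represents it in lists. Single-gene probe sets (10795) were looked up by gene ID in the RefSeq gene table of assembly GRCz12tu, used for names only. Of these, 10711 matched, and the rest kept their platform symbol. A further 135 probe sets had several genes and 4572 none.

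The members and lists were chosen with earlier results of these data known. Other genes were named by a rule: list genes past the threshold, up to 4 others of smallest p (2 in the mitochondrial list) and the 3 nearest profiles. Partner subunits were added after their values were seen. Levels were not compared between genes. Alternatives were other variance models, filters, scalings and thresholds, the mean of a gene's probe sets, a replicate block, and leaving out each array.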

Additional observations from a re-analysis of the deposited data

How the results depend on the processing

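No member passed with all 4 arrays in any alternative. With 1 array left out, the count of members past the threshold was 0 to 1 (suclg1 without control replicate 1), of whole-cycle genes 0 to 2, of entry and exit genes 0 to 1, of mitochondrial genes 0 to 4, and of all probe sets 147 to 934; the median difference of the 9 enzymes ranged from -0.0898 to 0.0275. A fit with 1 array in a group assumes that it varies like the other group. Over all probe sets the count of 273 was 0 without the trend, 174 without a filter and 161 at an adjusted p under 0.05. The mitochondrial count was 0 without the trend. The entry and exit count was 1, pck2, with robust eBayes, with the filter at a mean log2 of at least 6, with median centring, and with the replicate block. It was 0 without the trend, without a filter, with quantile normalization and with the mean of a gene's probe sets. The replicate block gave 0 members, 0 whole-cycle genes, 1 mitochondrial gene and 301 probe sets. Over all probe sets other than controls, the deviations of same-numbered arrays from their group means correlated at r = -0.0114. The labels do not say whether same-numbered arrays were paired, and this value, which includes dim and noisy probe sets, cannot settle it. Of 141 member values under alternatives, 134 kept their direction and side of the threshold, and 6 turned sign. The other variance models, filters and threshold and the replicate block leave the difference itself unchanged, so its direction could not turn there. The 134 thus say little about how stable the directions are. The sign turned for idh2 with quantile normalization (-0.0584), and with 1 array left out for cs (-0.27 to 0.0151), idh2 (-0.0453 to 0.0638), ogdha (-0.11 to 0.57) and fh (-0.41 to 0.0275). It also turned for rpl23a (quantile normalization -0.00672, median centring -0.00274, leaving out 1 array -0.0641 to 0.0768), ubb (mean of its probe sets 0.0605, leaving out 1 array -0.0834 to 0.0595) and rpl8 (-0.0784 to 0.0461). The causes were not tested.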
